A study of Drosophila melanogaster with 4 samples.

Results

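Transcription start clusters between genes are groups of neighbouring capped 5' ends that fall outside every annotated gene. In CAGE (cap analysis of gene expression) of adult fly testes, 4211 of 43632 consensus start clusters, 9.65%, were of this kind. A cluster was taken when its dominant start position, the base with most tags in the strongest underlying cluster of either group, lay more than 100 bp from any annotated transcription start site (TSS) on the same strand and inside no gene body on either strand. Another 123 clusters met these conditions but fell in annotated transposable elements and were left out (33.6% gained and 9.02% lost by the rule given below, 35.8% without a control cluster and 8.13% without a knockdown cluster). The gene models were those of Ensembl release 115 on the dm6 assembly. The clusters split almost evenly by strand, with 2012 on the plus and 2199 on the minus strand.

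RNA polymerase II can start transcription wherever open DNA lets the initiation machinery assemble, including enhancers and other regulatory DNA far from genes. Cells keep most such sites silent with chromatin proteins, among them the Mi-2 remodeler, which repositions nucleosomes. Sites that fire only when this silencing is lost are called cryptic promoters. The zinc finger protein Kmg (Kumgang) acts in male germ cells together with Mi-2, as spermatogonia turn into spermatocytes, the cells that switch on the large testis-specific gene programme and then enter meiosis.

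Flies of Drosophila melanogaster with 2 genotypes were compared, each with 2 libraries of testis RNA from males 0 to 2 days old. Control flies had the genotype bamGAL4, a driver active in late spermatogonia and not in the somatic cells of the testis. Knockdown flies had the genotype bamGAL4/ KmgRNAi, so the driver was shared and only the interference against kmg was added. All were shifted from 25 °C to 29 °C as eggs or young larvae, and each library was made from 150 pairs of testes, which hold germ cells of every stage with muscle and cyst cells around them. The series asks about the repression of cryptic promoters during differentiation of the germ line.

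Each group was deposited as 1 pooled value per cluster, so there is no replicate check and no p-value, and differences are between pooled libraries. Intervals are 95% intervals (Wilson for shares, exact binomial for ratios of counts) and cover counting error only. Those for shares count clusters, not tags, and treat clusters as independent, although many share a gap between genes. The clusters held 56519714 control tags and 34975246 knockdown tags, and levels are tags per 1000000 of these, written TPM. The kmg gene itself had 48.5 TPM in control testes, against 11.6 TPM after knockdown. All 8 late germline markers looked at had tags in both groups, with summed levels of 6641 and 3949 TPM. Of these, dj (2978 and 569.2 TPM), Mst98Ca (1796 and 703.0 TPM) and can (13.4 and 7.03 TPM) were lower in the knockdown, and the other 5 were higher. The 4 muscle sheath markers summed to 1117 and 343.1 TPM, the 3 cyst cell markers to 33.4 and 33.2 TPM, the 3 accessory gland markers to 128 and 4.26 TPM (Acp26Aa at 0 in the knockdown), the 3 neuron markers to 68.2 and 81.3 TPM (elav at 0 in control, nSyb at 65.3 and 2.14 TPM, brp at 2.95 and 74.3 TPM), and the 3 early germline markers that matched the annotation to 38.5 and 95.8 TPM. The part of these differences in the results was not tested. In whole testes, fewer cells of a type and less RNA per cell cannot be told apart. Control reads were 76 bp and knockdown reads 150 bp long, so read length and genotype cannot be told apart either.

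Start clusters between genes held a larger share of the tags in the knockdown. They held 0.562% of control tags and 3.25% of knockdown tags, with summed levels of 5617 and 32490 TPM (5.78 times as high). The clusters at annotated TSSs went the other way, from 91.5% to 70.2% of tags. Clusters off TSSs but inside gene bodies went from 7.64% to 25.0%, or 3.28 times as high in TPM. A level of 10 TPM or more was reached by 106 intergenic clusters in control and by 738 in the knockdown.

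A change was scored as log2((knockdown + 1) / (control + 1)) in TPM over clusters of at least 1 TPM in either group, and a 4-fold change was called gained or lost. Of 4171 intergenic clusters that passed this filter, 1919 were gained (46.0%, interval 44.5 to 47.5) and 94 were lost (2.25%, 1.85 to 2.75), while 2158 were neither (referred to as uncalled) and 40 did not reach the filter. Over all 43134 consensus clusters tested, 33.1% were gained and 3.61% were lost. At annotated TSSs the shares were 7.56% gained and 8.27% lost, and inside gene bodies off TSSs they were 42.9% and 1.64%. The gained share between genes was thus above that of all clusters and close to that of other clusters off annotated promoters. A scaling that sets the median ratio of clusters called in both groups to 1 left 1195 gained and 129 lost intergenic clusters, against 22.0% gained and 6% lost over all clusters. The rescaling moved all log2 ratios down by 0.71 before the pseudocount. Under that scaling the split at annotated TSSs moved from 932 gained and 1020 lost to 520 gained and 1641 lost.

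**Figure D1:**
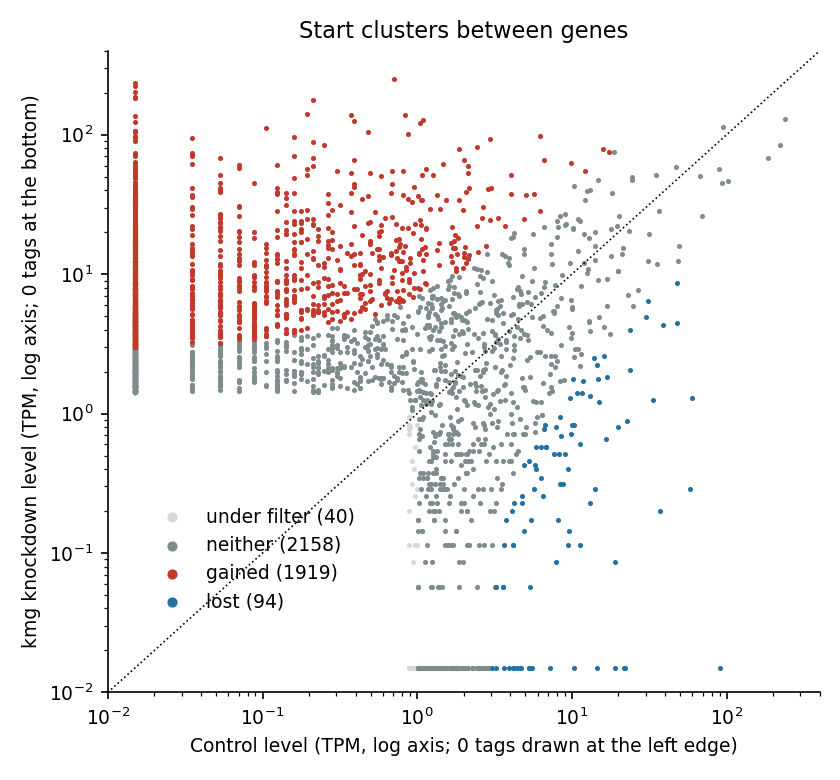
Level of each of the 4211 start clusters between genes in control (x axis) and in the kmg knockdown (y axis), in TPM on log axes, with the dotted line at equal levels. Clusters with 0 tags are drawn at the left or bottom edge, and 1303 of the 1919 gained clusters (red) had no control cluster and lie at the left edge. The 94 lost clusters (blue) lie at the lower right.

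The list of clusters carries its own threshold, since every intergenic cluster had at least 50 tags in at least 1 group. That minimum equals 0.885 control TPM or 1.43 knockdown TPM. It was reached in the knockdown alone by 3288 clusters (78.1%), in control alone by 450 (10.7%) and in both groups by 473 (11.2%). Clusters that reached it in the knockdown alone had to be higher there, so the direction of each follows from where the minimum was reached. Those that reached it in control alone could not be gained. At annotated TSSs, 78.0% of clusters reached 50 tags in both groups, and the remainder was divided as 12% in control alone and 9.96% in the knockdown alone. Among the 473 intergenic clusters that reached 50 tags in both groups, 95 were gained and 14 were lost, and the median knockdown level was 1.91 times the control level. The same median was 0.977 at 9699 annotated TSS clusters and 1.75 at 4529 clusters inside gene bodies.

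No control tag cluster at all was called at 2430 intergenic sites, 57.7% (56.2 to 59.2), against 37.7% of all consensus clusters and 5.48% of those at annotated TSSs and 49.5% inside gene bodies. Their median level in the knockdown was 3.20 TPM, and 340 of them reached 10 TPM. The consensus table held no tags beyond the knockdown cluster in 1832 of the 2430, which leaves 0 counted control tags there. Any tags filtered out before the consensus was made would not show. A further 519 had 1 to 3 such tags and 79 had more, up to 50. The control was sequenced more deeply, and 3 control tags correspond to 0.0531 TPM. Of the 2430 sites, 1303 passed the 4-fold rule, and the other 1127 did not, since a site with 0 control tags must reach 3 TPM to pass. Conversely, 132 sites had a control cluster and no knockdown cluster (3.13%, against 2.92% of all clusters, 4% at TSSs and 2.36% inside gene bodies), with a median of 1.54 TPM in control.

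Gained shares differed from those at annotated promoters at every level. Clusters were binned by the higher of their 2 group levels. Between 5 and 20 TPM, 80.1% of 1225 intergenic clusters were gained (77.8 to 82.2), against 76.8% of 7643 clusters inside gene bodies and 11.4% of 3539 at annotated TSSs. From 20 to 100 TPM the shares were 84.0% of 349, 75.6% of 2583 and 7.64% of 3509. Of the 26 intergenic clusters at 100 TPM or more, 21 were gained and 0 were lost, where 52.2% of 324 clusters inside gene bodies and 4.80% of 2022 at TSSs were gained. Below 5 TPM, where the pseudocount weighs most, 24.3% of intergenic clusters were gained, against 21.2% inside gene bodies and 5.03% at annotated TSSs.

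**Figure D2:**
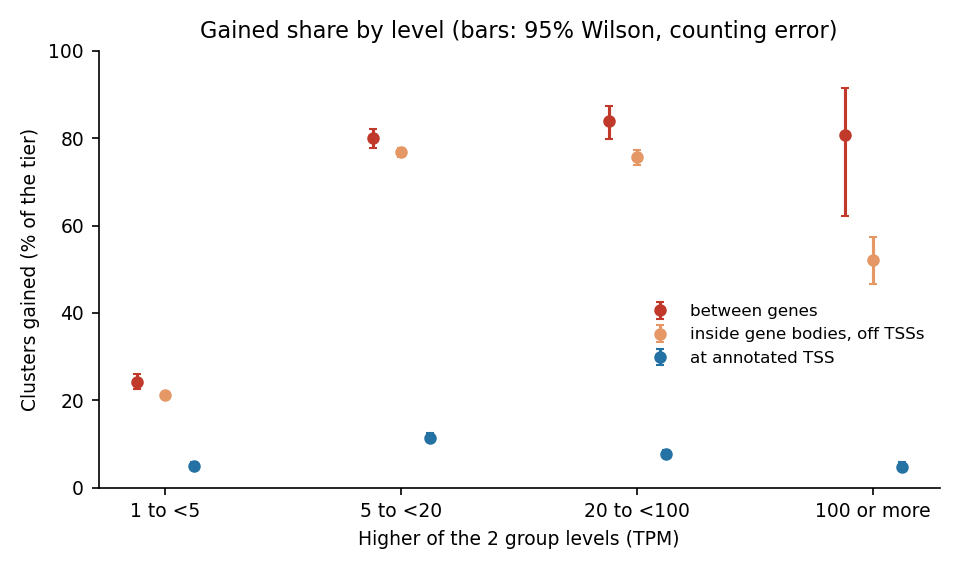
Share of clusters gained in the knockdown (y axis, percent) by the higher of the 2 group levels (x axis, TPM) for clusters between genes, inside gene bodies off TSSs and at annotated TSSs, with 95% Wilson intervals for counting error. Intergenic clusters were gained in 80.1% to 84.0% of cases from 5 TPM up, and TSS clusters in at most 11.4%.

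The 10 gained clusters with the highest knockdown level stood between 137.4 and 250.2 TPM in the knockdown. For comparison, the median annotated TSS cluster called in the knockdown stood at 11 TPM. Distances to genes are taken from the dominant base. The highest of the 10 lay on the plus strand of chromosome 3R from 7318808 to 7318986, between the long noncoding RNA genes lncRNA:CR46299 and lncRNA:CR46224. Its dominant base, 7318884, was 81 bp past the end of lncRNA:CR46299 and 104 bp before the start of lncRNA:CR46224. The cluster itself came within a few bp of both genes. Its level was 0.708 TPM in control, from 40 tags, and 250.2 TPM after knockdown, from 8751 tags, 353.5-fold higher (259.4 to 495.2). It had the same dominant base in both groups, and at 104 bp from a same-strand TSS that base lay just past the 100 bp limit of the rule.

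Of the 10 strongest gained clusters, 5 had 0 control tags. The first, on the minus strand of chromosome 2L from 1007331 to 1007495, lay 935 bp past the 3' end of IA-2, a gene for a protein tyrosine phosphatase-like protein of secretory vesicles. It stood at 235.7 TPM in the knockdown, at least 4440-fold higher over a floor of 3 control tags, while the annotated TSSs of IA-2 summed to 4.37 and 6.06 TPM. Its next same-strand TSS was 16143 bp away. A minus-strand cluster on 3L from 18245641 to 18245735, in the gap between lncRNA:CR45936 and CheA75a, reached 221.7 TPM (at least 4177-fold). On 3R from 17313807 to 17313981, 6118 bp from beat-IIa, a gene of the beaten path family of neuronal surface proteins, a plus-strand cluster reached 201.3 TPM (at least 3793-fold). That site points toward the 3' end of beat-IIa, whose annotated TSSs had 0 TPM in both groups.

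The remaining pair without control tags lay deep in large gaps. One, on 2R from 13314282 to 13314517, was 12925 bp from CG17047 and 14880 bp from lncRNA:CR44206, and reached 187.3 TPM (at least 3529-fold). The other, on 2L from 15528413 to 15528592, was 4471 bp from lncRNA:CR43761 and 19055 bp from Skadu on its other side, and reached 181.8 TPM (at least 3425-fold). None of these 5 had more than 2 consensus tags unaccounted for by the knockdown.

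The other 4 had 11 to 47 control tags. A plus-strand cluster on 2R from 8791505 to 8791620 lay 1058 bp upstream of CG8746. It was at 0.212 TPM in control and 177.9 TPM after knockdown, 838.0-fold higher (479.4 to 1623). The annotated TSSs of CG8746 itself went the opposite way, from 776.8 to 180.8 TPM. On 3L from 5957807 to 5958023, a plus-strand cluster 7250 bp from Egfrap and 9637 bp from CG10479 went from 0.195 to 140.1 TPM. A cluster 23836 bp upstream of beat-VI, another beaten path gene, on 3R from 28394296 to 28394431, went from 0.832 to 138.0 TPM, with 0 TPM at the annotated TSSs of beat-VI in both groups. The last, on 3R from 6701304 to 6701453, lay 584 bp from Ccp84Ab, a cuticle protein gene, and went from 0.372 to 137.4 TPM. The 10 strongest clusters in the knockdown held 5.76% of its intergenic tags.

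Lost intergenic clusters numbered 94, and 20 of them had no knockdown cluster. Their median control level was 8.38 TPM. The strongest, on the plus strand of 3L from 23996399 to 23996464, had 5148 control tags (91.1 TPM) and 0 knockdown tags, at least 1062-fold lower over a floor of 3 tags. It lay in the gap between CG40470 and lncRNA:CR40053, and 609 bp from an annotated transposable element. Also on 3L, on the minus strand from 24040878 to 24041028, between CG40045 and the synaptic gene Snap25, a cluster fell from 58.1 to 0.286 TPM, 203.2-fold (110.4 to 424.2). The CG40045 gene itself was at 115.7 and 136.4 TPM at its annotated TSSs.

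On the X chromosome, a minus-strand cluster from 53560 to 53633, ahead of the first annotated gene of the chromosome, fell from 59.4 to 1.29 TPM, 46.2-fold (34.4 to 63.4). The 3 others named by rank fell less. One on 2L from 23369325 to 23369369, 45146 bp from the pseudogene CR42530 and 46578 bp from the pseudogene CR41519, went from 48.0 to 8.58 TPM. One on 2R from 1316581 to 1316660, 26805 bp past the end of Yeti, a gene for a chromatin protein, went from 38.6 to 4.29 TPM. The sixth sat close to genes, just over 100 bp upstream of CG2224 on 3R from 30459376 to 30459476, and went from 47.6 to 4.49 TPM while the annotated TSSs of CG2224 were at 4.35 and 15.6 TPM.

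Control testes had intergenic start sites of their own, and of the strong ones 53 lay within 500 bp of a gene. The 10 highest held 22.3% of all control tags between genes. Of the 106 clusters at 10 TPM or more in control, 66 were neither gained nor lost, 37 were lost and 3 were gained. Their median distance to a gene was 498 bp, against 2055 bp for the 738 clusters at 10 TPM or more in the knockdown. The highest, on 3L from 8110171 to 8110480, had its control dominant base 122 bp upstream of Nulp1 and stood at 237.1 and 128.7 TPM. In the knockdown its dominant base was 8110371, against 8110246 in control, and the cluster reaches over the annotated TSS.
A cluster 105 bp upstream of CG31174 was at 185.7 and 68.2 TPM. Another, 285 bp wide, had its dominant base between ALiX and btz, which encodes a subunit of the exon junction complex. It was at 101.5 and 46.3 TPM. This cluster, on 3R from 27699961 to 27700322, reached into ALiX and over an annotated same-strand TSS 166 bp from its dominant base.

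The other 3 of these strong control clusters lay farther out. On 2R from 2365447 to 2365662, 9123 bp upstream of the pseudogene CR40100 and 103393 bp from the gene on its other side, a cluster was at 222.9 and 85.0 TPM. It and the CG31174 cluster passed the 4-fold rule downward after rescaling, at -2.08 and -2.13. A cluster 959 bp upstream of MED21, a subunit of the Mediator coactivator, on 3L from 25116815 to 25116961, was at 94.3 and 114.2 TPM, with the same dominant base in both groups. Its log2 ratio was 0.27, or -0.43 after rescaling. The annotated TSSs of MED21 were lower than this site in both groups, at 10.2 and 44.0 TPM. The last, 5117 bp upstream of lncRNA:CR44916 on 2L and 90 bp from an annotated element, was at 92.8 and 45.4 TPM.

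Some start sites lay extremely far from any gene. The median distance to the nearest gene was 1630 bp, the middle 50% ran from 370 to 4738 bp, and 68 clusters were over 50000 bp away. Of those with at least 10 TPM in either group, the 4 farthest are named. The first, 326694 bp from CG40228 on 3L from 26755363 to 26755441, went from 1.54 to 33.9 TPM, 22.0-fold (17.7 to 27.7). In the same 710734 bp gap, a plus-strand cluster 170065 bp from CG42598 went from 37.1 to 0.200 TPM, 185.3-fold lower (89.8 to 461.4), and a minus-strand cluster 162009 bp from that gene went from 0.442 to 10.0 TPM. Clusters of that 1 gap thus differed in both directions. The fourth, 101689 bp upstream of AGO3, an Argonaute gene of the piRNA pathway, was at 5.70 and 11 TPM. The nearest annotated transposable element lay 30132, 564, 8620 and 626 bp from these 4 clusters in turn.
Of 66 tested clusters over 50000 bp from genes, 16 were gained (24.2%, 15.5 to 35.8) and 8 were lost (12.1%, 6.27 to 22.1). Of 931 over 5000 and up to 50000 bp away, 49.4% were gained and 1.93% were lost.

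Each cluster was placed by its nearest gene edge, as upstream (before the 5' end of a same-strand gene), divergent (beside the 5' end of an opposite-strand gene), downstream (past the 3' end of a same-strand gene) or convergent (facing the 3' end of an opposite-strand gene). Upstream clusters numbered 31.1%, divergent 25.8%, convergent 21.7% and downstream 21.3%. To set this against the DNA on offer, counts were divided by the strand length that met the rule, 74.8 Mb in all for the 4181 clusters that lie between annotated genes. The mean density was 55.9 clusters per Mb. It was highest over 100 and up to 500 bp upstream of genes, at 202.2 per Mb, and at 1 to 100 bp divergent from them, at 156.5 per Mb. Beyond 5000 bp it was 28.7 to 35.3 per Mb in all 4 orientations. Clusters off TSSs inside gene bodies had a density of 145.2 per Mb.

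Gained shares were lower within 500 bp of a gene than from there to 5000 bp, except for convergent clusters over 100 and up to 500 bp away, of which 50.5% were gained (41.0 to 59.9). Within 100 bp of a gene, 28.9% of 298 tested clusters were gained (24.0 to 34.2), and from there to 500 bp 35.1% of 897 (32.1 to 38.3). Over 500 and up to 1000 bp the share was 52.6% (48.2 to 56.9), from there to 5000 bp 52.8% (50.2 to 55.3), and beyond 5000 bp 48.2% (45.1 to 51.4), which includes the clusters over 50000 bp away with their lower share. The clusters that were not gained fell off faster with distance, from 72.1 per Mb within 100 bp to 16.2 per Mb beyond 5000 bp, whereas gained clusters went from 29.3 to 15.1 per Mb and peaked at 39.3 per Mb between 500 and 1000 bp. By orientation, gained shares were 43.8% upstream, 43.0% divergent, 49.2% downstream and 50.2% convergent. The median distance was 2059 bp for gained, 1318 bp for uncalled and 457 bp for lost clusters.

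**Figure D3:**
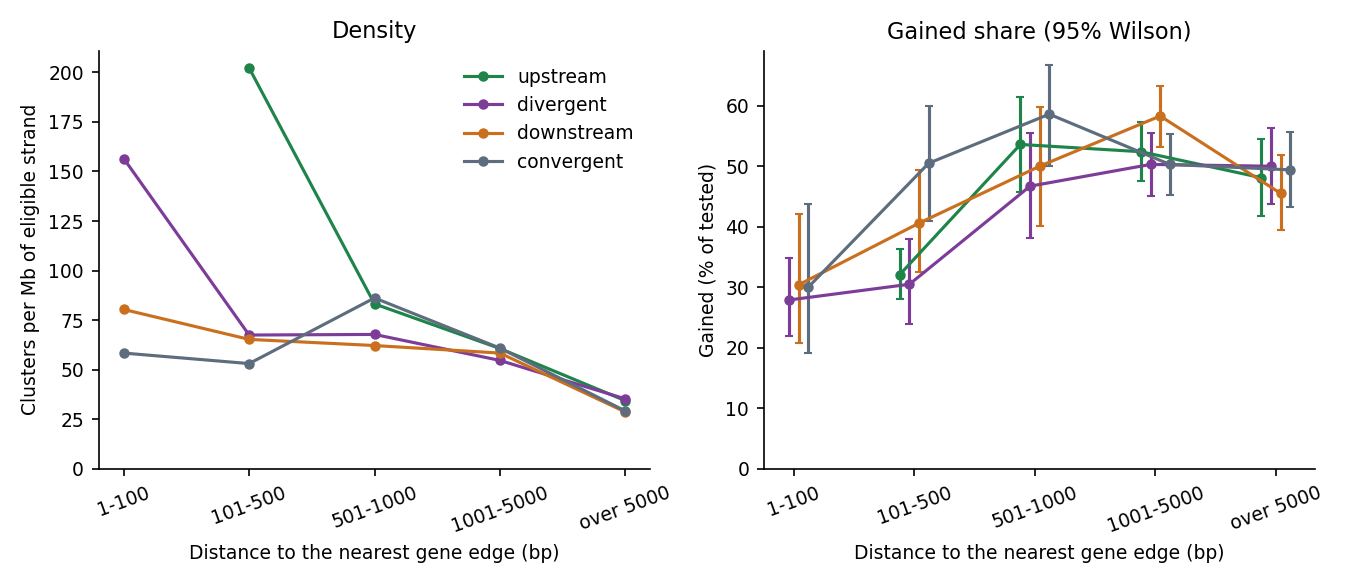
Left, start clusters between genes per Mb of eligible strand (y axis) by distance to the nearest gene edge (x axis, bp) and orientation to that gene. Right, the share gained in the knockdown with 95% Wilson intervals. Density is highest at 100 to 500 bp upstream of genes (202.2 per Mb). The gained share runs from 27.9% to 30.4% within 100 bp and from 45.5% to 50% beyond 5000 bp.

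The values on both sides of the 100 bp limit were as follows. Outside gene bodies, 260 clusters 51 to 100 bp from a same-strand TSS, just left out by the rule, had median levels of 2.80 control TPM and 3.37 knockdown TPM, and 215 clusters over 100 and up to 150 bp away had medians of 1.38 and 2.43 TPM. The gained shares were 13.6% and 24.3%, and the lost shares 11.7% and 8.10%. Only 16 of the 4211 clusters spanned an annotated TSS, and in 51 the dominant base of 1 group fell at a TSS, in a gene or in an element. With these 51 left out, 1911 were gained and 90 were lost.

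The annotated promoters of the nearest genes were set beside the clusters. Upstream of genes, 569 gained clusters had 492 genes as their nearest neighbours, of which 283 had at least 1 TPM at an annotated TSS. The median log2 ratio at those TSSs was 0.17, with 57 gained and 37 lost. For all 10702 genes with such a TSS the median was -0.04, with 7.36% gained and 8.19% lost. Genes that a gained cluster lay upstream of had a gained TSS in 20.1% of cases, and those of uncalled clusters in 12.4%. The shares were 15.9% and 10.2% for divergent neighbours, 12.9% and 11.4% where the cluster lay past the gene's end, and 12.3% and 13.2% where the 3' ends faced it. The shares with a lost TSS, beside gained and uncalled clusters in turn, were 13.1% and 10.3% upstream, 10% and 8.92% divergent, 12.4% and 10.5% downstream, and 13.7% and 10.5% convergent. In 209 of the 492 genes (42.5%) no annotated TSS reached 1 TPM, and 41.7% among all 18358 genes. These clusters and promoters come from the same pooled libraries.

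Start clusters were also counted by the gap that held them. The 4181 clusters fell into 2204 of 12282 gaps between genes, and 858 gaps held 2 or more. The 1911 gained clusters among them fell into 1200 gaps. Gaps with a cluster had a median length of 5287 bp, against 472 bp for all gaps, and 78.7% of the 403 gaps over 20000 bp held at least 1. A gained cluster was present in 12.1% of gaps over 1000 and up to 5000 bp, 39.7% of gaps up to 20000 bp and 52.4% of longer ones. The gaps with 5 or more gained clusters numbered 38 and together held 230 of them.

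The gap with most gained clusters, 34706 bp on 2L between CG15258 and lncRNA:CR44859, held 19 start clusters, of which 13 were gained and 0 lost. In control they summed to 52 tags (0.920 TPM) and in the knockdown to 9370 tags (267.9 TPM). At 15 of the 19 no control cluster was called, and 15 lay on the minus strand. The highest, on the plus strand 17.86 kb into the gap, had 0 control tags and reached 73.9 TPM after knockdown. A minus-strand cluster 19.77 kb in was at 0.584 and 50.6 TPM, and the remaining 17 ranged from 1.92 to 27.0 TPM in the knockdown. The starts ranged from 0.57 to 34.52 kb into the gap.

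**Figure D4:**
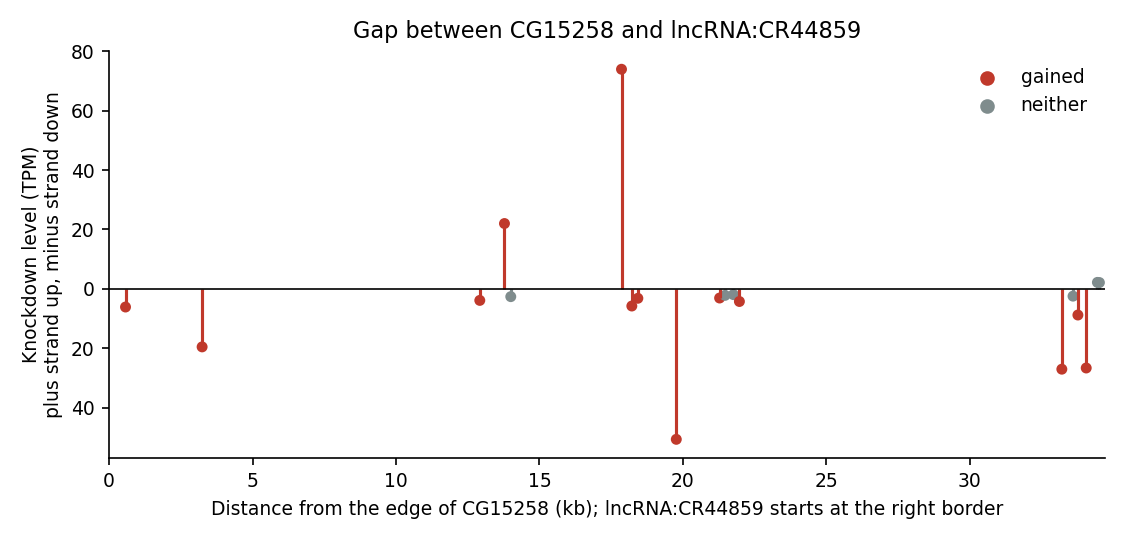
Knockdown level (y axis, TPM) of the 19 start clusters in the gap between CG15258 and lncRNA:CR44859, by distance from the edge of CG15258 (x axis, kb), with plus-strand clusters drawn upward and minus-strand clusters downward. The 13 gained clusters are spread over the gap, with the highest at 73.9 TPM, and no control level exceeds 0.584 TPM.

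Another 7 gaps were picked by their count of gained clusters, after their values were seen. The 60639 bp gap on 2R between lncRNA:CR45229 and CG16894 had 15 clusters, 9 of them gained, and its sum went from 0.708 to 72.0 TPM. The 41990 bp gap before salm, which encodes the Spalt major zinc finger regulator of organ identity, had 13 clusters with 7 gained, and its sum went from 0.372 to 119.6 TPM. Between Or98b, an odorant receptor gene, and beat-VI, 10 clusters with 7 gained went from 1.01 to 259.8 TPM, of which 138.0 TPM came from the beat-VI cluster described above. On 3L, 11 clusters with 9 gained between CG13300 and lncRNA:CR45419 went from 0.425 to 68.7 TPM. Also on 3L, 9 clusters with 8 gained between CG43168 and lncRNA:CR45420 went from 1.40 to 203.3 TPM. The 10289 bp gap between Obp83g, an odorant-binding protein gene, and Vha14-2, a proton pump subunit gene, had 11 clusters with 7 gained (0.389 to 118.6 TPM). The gap between the pseudogene CR33283 and CG12984 had 9 with 7 gained (0.142 to 85.4 TPM). None of these 8 gaps held a lost cluster, but only 2.25% of all tested intergenic clusters were lost.

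Paired starts, in which a cluster on the opposite strand lies within 500 bp upstream, were counted. Such a divergent partner was found for 635 of the 4211 clusters (15.1%, 14.0 to 16.2), against 27.4% of clusters at annotated TSSs and 20.3% inside gene bodies. The partner lay at an annotated TSS for 338 of them and between genes for 273. Clusters with a partner were gained in 37.6% of cases (33.9 to 41.5), and those without one in 47.5% (45.8 to 49.1). At annotated TSSs the shares were 4.78% with a partner and 8.61% without. Inside gene bodies the order was reversed, with 45.9% (44.6 to 47.2) and 42.1% (41.4 to 42.8). Pairs made of 2 intergenic clusters numbered 145. In 44 of these both members were gained, in 68 one was gained and the other uncalled, and in 3 one was lost. Only these last 3 pairs held a lost cluster, each beside an uncalled one, and 2.25% of all tested intergenic clusters were lost.

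The X chromosome carried fewer intergenic start sites for its length, and fewer of them were gained. X held 252 of the clusters. Densities are over the clusters that lie between annotated genes, and were 23.0 per Mb of eligible strand on X and 54.7 to 78.3 per Mb on the 4 large autosomal arms. Gained clusters stood at 7.40 per Mb on X and 26.0 to 35.2 per Mb on those arms. Clusters called in control were also sparser on X, at 10.9 against 22.5 to 32.9 per Mb. The share gained on X was 32.3% (26.7 to 38.3), and 45.3% to 48.1% on 2L, 2R, 3L and 3R. Other classes were likewise lower on X: 4.65% of its TSS clusters and 37.5% of those inside gene bodies were gained, where the large arms had 7.64% to 8.42% and 42.2% to 44.4%. Chromosome 4 had 7 intergenic clusters, 0 of them gained (interval 0 to 35.4%). The Y chromosome had 41, of which 11 were gained (27.5% of those tested, 16.1 to 42.8) and none exceeded 30.7 TPM. Over all consensus clusters, 28.3% were gained on chromosome 4 and 33.3% on Y. The 4 large arms had 33.7% to 34.5% by that measure, and X had 24.0%. At annotated TSSs, 1.43% were gained on chromosome 4 and 18.2% on Y, which had 11 TSS clusters.

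**Figure D5:**
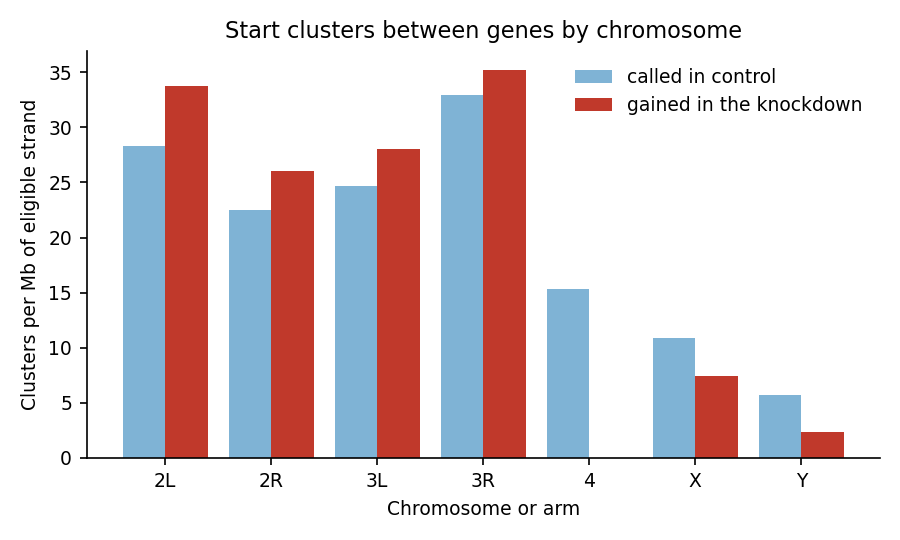
Start clusters between genes per Mb of eligible strand (y axis) on each chromosome or arm (x axis), for clusters called in control (light blue) and gained in the knockdown (red). Gained clusters run from 26.0 to 35.2 per Mb on 2L, 2R, 3L and 3R and stand at 7.40 per Mb on X.

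Start clusters between genes were mostly broader than 10 bp. Width is the deposited distance in bp between the 0.1 and 0.9 quantile positions of the tags, and widths of 10 bp or less were called sharp. Among clusters of at least 5 TPM in the group measured, 3.72% of 1480 intergenic clusters were sharp in the knockdown (2.87 to 4.81), and 3.20% of 219 in control (1.56 to 6.45). Annotated TSS clusters of that level were sharp in 15% of cases in the knockdown and 18.9% in control. Clusters inside gene bodies had 3.71% in the knockdown and 7.60% in control. The median width of intergenic clusters in the knockdown was 50 bp at this level, with a median of 11 start positions. Gained and uncalled clusters of at least 5 TPM had median widths of 49 and 55 bp in the knockdown, and were sharp in 3.71% and 3.83% of cases. Without the level filter, gained clusters had a median width of 46 bp in the knockdown and 6.72% were sharp, and uncalled ones had 30 bp and 20.5%. Without it, 13.9% of intergenic clusters were sharp in the knockdown and 20% in control.

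Dominant positions were compared where a site was called in both groups. Of the 1649 intergenic clusters called in both, 763 kept the same dominant base (46.3%, 43.9 to 48.7), and in 650 it lay more than 10 bp away (39.4%, 37.1 to 41.8). At annotated TSSs 63.6% kept it, and inside gene bodies 44.3%. Limited to 5 TPM or more in both groups, 53.5% of 99 intergenic clusters kept it (43.8 to 63.0), against 63.7% of 6822 at TSSs.

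Transposable elements and the kind of neighbour were also compared. Of the clusters tested within 1000 bp of an annotated element, 36.7% of 229 were gained (30.7 to 43.1), and 46.0% of 2873 that lay over 10000 bp from one (44.2 to 47.9). The nearest gene was protein-coding for 3035 clusters and a noncoding RNA gene for 1086, with 44.1% and 51.4% gained. A transfer RNA gene was nearest for 28, of which 18 were gained.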

How the data were processed

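CAGE tags from 4 libraries of testis RNA were deposited as 3 tables, each group pooled over its 2 libraries. The submitters' processing notes list Trim Galore 0.6.6, STAR 2.7.11b, bedtools, BDGP6 and dm6, with no role for any. For the caller of clusters, name and settings were not given in the sources used here. Each deposited level column is headed TPM per the file headers but holds whole numbers, 56519714 in control and 34975246 in the knockdown in all. These were read as unnormalized tag counts that the authors deposited, and scaled to 1000000 per group. Other deposited columns, the number of start positions and the interquantile width in bp, were used as given. Tag clusters were assigned to the consensus cluster they overlap most on the same strand.

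Clusters were placed on Ensembl release 115. Transposable element annotations (5896) were not counted as genes. The analysis used Python 3.11.15, numpy 2.4.6, pandas 2.3.3 and scipy 1.17.1, and its functions were tested on simulated data. Ratios against 0 tags used a floor of 3 tags over the pooled libraries, or the consensus tags left unexplained where these were more. The clusters, comparisons and lists were chosen with earlier results of these data known. Named regions were the 10 gained with highest knockdown level, the 6 lost and the 6 neither gained nor lost with highest control level, and the 4 farthest from genes with at least 10 TPM. The 8 gaps named were chosen after their values were seen. No genome sequence was used here, so planned motif and sequence-uniqueness checks were not run.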

Additional observations from a re-analysis of the deposited data

How the results depend on the processing

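The number of intergenic clusters stayed between 3419 and 4471 under the other TSS windows (50 and 500 bp), a scaled choice of the dominant base, gene bodies extended by 500 bp and elements kept in. Gained clusters outnumbered lost ones under every setting run, but no setting changed the 50-tag minimum of the list. That minimum was reached in the knockdown alone by 3288 clusters, with 1824 of the 1919 gained ones among them. For each of these the direction follows from the group in which the minimum was reached. The number of clusters on each side does not, since the same 50 tags applied to either group. In control alone it was reached by 450 intergenic clusters. At annotated TSSs it was reached in control alone by 1497 clusters and in the knockdown alone by 1238. The counts of gained and lost clusters depended on the rule. Against 1919 gained (46.0% of those tested) and 94 lost, a pseudocount of 0.5 TPM gave 3130 (75%) and 187, 3 TPM gave 682 (16.4%) and 26, a 2-fold rule 3453 (82.8%) and 333, and an 8-fold rule 820 (19.7%) and 23. Rescaling gave 1195 (30.9%) and 129, and a filter of 5 TPM 1295 (80.9%) and 72. A TSS window of 50 bp gave 44.1% gained, a window of 500 bp 50.2% gained and 58 lost, and clusters at least 1000 bp from genes 1254 (50.7%) gained and 43 lost. Fewer clusters are counted under the last of these. The share of clusters without a control cluster was 51.5% at 5 TPM or more in the knockdown, against 57.7%. Measured to protein-coding genes alone, the median distance was 2645 bp. Sharp clusters made up 13.4% in control and 9.17% in the knockdown at widths up to 5 bp, 34.1% and 23.5% up to 20 bp, and 3.20% and 3.72% at 5 TPM or more. Leaving out the clusters within 1000 bp of an element, a setting added after seeing the data, gave 1835 gained and 86 lost. Of 66 checks on the 22 clusters named by level as gained, lost or neither, 64 kept their call, and the CG31174 and CR40100 clusters became lost after rescaling. No paired analysis was possible because each group was deposited as 1 pooled value, and no library could be left out for the same reason. Motif shares and sequence uniqueness were not run. The 50-tag minimum of the list limits what can be seen at low levels, and counting intervals say nothing of the spread between flies.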
